A study of Homo sapiens with 20 samples.

Results

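The set described here is the folding, quality-control and stress machinery of the endoplasmic reticulum (ER): 34 genes listed by symbol, all of them among the 26038 genes of the deposited count table. They were chosen by function, as 11 chaperones and co-chaperones, 6 disulfide isomerases and thioredoxin-domain proteins, the stress-induced secreted proteins MANF and CRELD2, 3 stress sensors with the factor XBP1, 7 genes of ER-associated degradation (ERAD) and 4 genes of the translocon and the translocon-associated TRAP complex. The 20 RNA-seq libraries, 5 in each of 4 groups, come from MHCC-97H, by its label a line of human liver cancer (hepatocellular carcinoma). One experiment compared wild-type cells after a water bath at 37 °C (R-37) with wild-type cells after a bath at 47 °C (R-47). The other compared NFS1, cells labelled as an NFS1 knockdown and made with shRNA, with NC, whose genotype label is also wild-type. NC and NFS1 were both kept at 47 °C, so these controls carry the heating too. Every bath lasted 15 minutes and every culture then stood for 24 hours in an incubator, so the values describe cells one day after heating and not the heating itself. The hairpin, the number of clones and what the NC cells received in place of a targeting hairpin are not stated in the labels.

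Proteins bound for secretion or for membranes enter the ER through the Sec61 channel, and are folded there by chaperones such as HSPA5 (BiP), by the lectins calreticulin and calnexin, and by disulfide isomerases. When unfolded protein builds up, the sensors ERN1 (IRE1), ATF6 and EIF2AK3 (PERK) start the unfolded protein response. IRE1 splices the XBP1 mRNA, ATF6 is cut to a free transcription factor, and PERK phosphorylates a translation initiation factor and favours ATF4. ATF6 and XBP1 then switch on chaperone and ERAD genes, and ERAD sends proteins that fail to fold back to the cytosol for the proteasome. Hepatocytes are heavy secretors and depend on this machinery. Counts per gene measure the amount of mRNA, so splicing of XBP1, cleavage of ATF6 and kinase activity were not measured.

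The element through which ATF6 and XBP1 are known to act, the ER stress response element (ERSE), is a CCAAT box followed after 9 bases by CCACG. Its variant ERSE-II holds the same parts in a tighter order. The sites below show which members carry these letters in the 250 bases before a RefSeq start (GRCh38.p14), with the fixed bases of the motif in capitals, each read 5′ to 3′ on the strand on which the motif runs as spelled.
HSPA5, chr9:125241386-125241414, minus strand: cttcaCCAATcggcggcctCCACGacggg
HSP90B1 upstream site, chr12:103930211-103930239, plus strand: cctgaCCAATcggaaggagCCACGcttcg
HSP90B1 downstream site, chr12:103930316-103930344, minus strand: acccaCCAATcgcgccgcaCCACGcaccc
CALR, chr19:12938379-12938407, minus strand: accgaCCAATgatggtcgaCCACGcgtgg
CANX, chr5:179698773-179698801, plus strand: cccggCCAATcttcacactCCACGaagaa
PDIA6, chr2:10812848-10812876, minus strand: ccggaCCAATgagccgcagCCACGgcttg
CRELD2, chr22:49918549-49918577, minus strand: atggcCCAATccgagttcgCCACGagagg
XBP1, chr22:28800598-28800626, minus strand: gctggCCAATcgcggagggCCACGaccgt
HYOU1 first site, chr11:119057375-119057395, plus strand: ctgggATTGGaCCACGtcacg
HYOU1 second site, chr11:119057269-119057289, plus strand: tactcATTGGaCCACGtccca
HERPUD1, chr16:56932020-56932040, plus strand: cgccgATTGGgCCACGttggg
SDF2L1, chr22:21642109-21642129, minus strand: ttttgATTGGtCCACGcttcc

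ERSE was searched as CCAAT, any 9 bases and CCACG, and ERSE-II as ATTGG, any 1 base and CCACG, each on both strands and without mismatches. RefSeq windows were matched for 32 of the 34 members (DERL1 and PDIA3 had none), in 40 windows. ERSE stood before 7 members (21.9%), against 0.0916% of the 27305 genes with such a window, and ERSE-II before 3 members (9.38%), against 0.0659% of genes. Every ERSE holds a CCAAT box, which is common by itself: CCAAT stood before 37% of genes and before 28 members (87.5%). The other stress element searched, UPRE (TGACGTGG), stood before 0.78% of genes and before 2 members, HYOU1 and TXNDC5. A heat shock element spelled as GAA, any 2 bases, TTC, any 2 bases and GAA stood before 0.557% of genes and before none of the members, which says only that these letters are not in these windows. These elements were first described in promoters of several of these same genes, so their presence is a description of the set and not evidence on how the genes behaved here.

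The HSPA5 window is given whole, since this chaperone gene is the usual gauge of the response and no annotated exon overlaps the window (GRCh38.p14, chr9:125241344-125241593, minus strand, the full-length ERSE with its spacer in capitals).
HSPA5 promoter: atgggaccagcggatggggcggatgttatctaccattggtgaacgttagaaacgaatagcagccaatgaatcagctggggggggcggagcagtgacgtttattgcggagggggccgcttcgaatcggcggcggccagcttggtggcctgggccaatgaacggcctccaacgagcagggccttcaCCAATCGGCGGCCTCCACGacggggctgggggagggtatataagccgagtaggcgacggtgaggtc

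Depth was 32219946 to 39689939 counts per library, and 18105 to 20480 genes had at least 1 count. Levels are given as CPM, counts brought to a common library size with TMM factors over all 20 libraries, for replicates 1 to 5 in that order. The least abundant member, TXNDC5, had 1.5 to 3.84 CPM in R-37, and all 34 members passed the filter on low counts in all 3 comparisons. The labels do not say whether the 5 libraries of a group are separate cultures. The p-values therefore rest on a spread between samples that may be technical. Liver transcription factors were expressed in every group (HNF4A 45.6 ± 3.21 CPM in R-37, 96.3 ± 5.28 in NC; SD, n = 5 each), while GPC3, often raised in liver cancer, had no count in R-37 and ALB stood at 14.1 ± 1.56 CPM there. Leukocyte markers summed to 0.788 to 1.84 CPM over all libraries. NC and R-47 share genotype, temperature and time by their labels but differed in many genes, among them the mesenchymal marker VIM (10.3 ± 0.865 CPM in R-47, 217 ± 9.79 in NC) and the epithelial marker CDH1 (18.5 ± 0.796 and 3.99 ± 0.663). Of 8 epithelial and mesenchymal markers tested there, 6 were lower in NC and 2 higher, against 39.6% and 40.1% of all genes tested. Their log2 fold changes ran from -9.04 to 4.40. Experiment and cell population cannot be told apart in this comparison. Within the second experiment NC replicate 1 and NFS1 replicate 4 stood apart from their groups for several members, and the counts below are given also without them.

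In unheated cells the set spanned a wide range of abundance. On the length-corrected FPKM scale of the authors, the disulfide isomerase P4HB was highest in R-37 (646 ± 43.9 FPKM, SD, n = 5). HSP90B1 (452 ± 29.6) and CALR (449 ± 28.0) followed and did not differ beyond their spread, and then came SSR2 (324 ± 6.31) and HSPA5 (225 ± 4.18). The sensors were scarce, with ATF6 at 5.58 ± 0.834, EIF2AK3 at 4.74 ± 0.395 and ERN1 at 1.94 ± 0.124 FPKM, and TXNDC5 was lowest at 0.756 ± 0.282 FPKM. TXNDC5 shares its exons with an annotated read-through transcript, and its level is uncertain for that reason. In NC the order changed at the top: P4HB stayed highest (387 ± 13.1 FPKM), CALR followed (257 ± 4.6), and HSP90B1 (145 ± 9.91), SEC61B (144 ± 12.6) and SSR2 (133 ± 2.55) lay within their spread of each other.

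R-47 against R-37 addresses what a bath at 47 °C leaves in wild-type cells one day on. ER folding genes went down: of the 34 members 22 fell and 1, SIL1, rose in R-47 relative to R-37, where 13.2% of all genes tested were called lower, 11.9% higher and 25.1% in either direction. The falls were steepest for HSP90B1, PDIA4, HSPA5 and PDIA6, while none of the 3 sensors and only 3 of the 7 ERAD genes passed the test. Summed over the 34 members, the level went from between 10302 and 10464 CPM in the R-37 libraries to between 7396 and 7866 CPM in R-47, with no overlap. The test was edgeR's quasi-likelihood test with Benjamini-Hochberg adjustment over all 14344 genes tested, at an adjusted p under 0.05. The median log2 fold change of the members was -0.25, against -0.0076 over all genes tested. The 5 libraries of each group did not overlap for 21 of the 22 members that fell and for SIL1, against 9.95% (lower) and 8.07% (higher) of all genes tested. In bulk RNA, fewer cells of a type and less RNA per cell cannot be told apart.

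**Figure D1:**
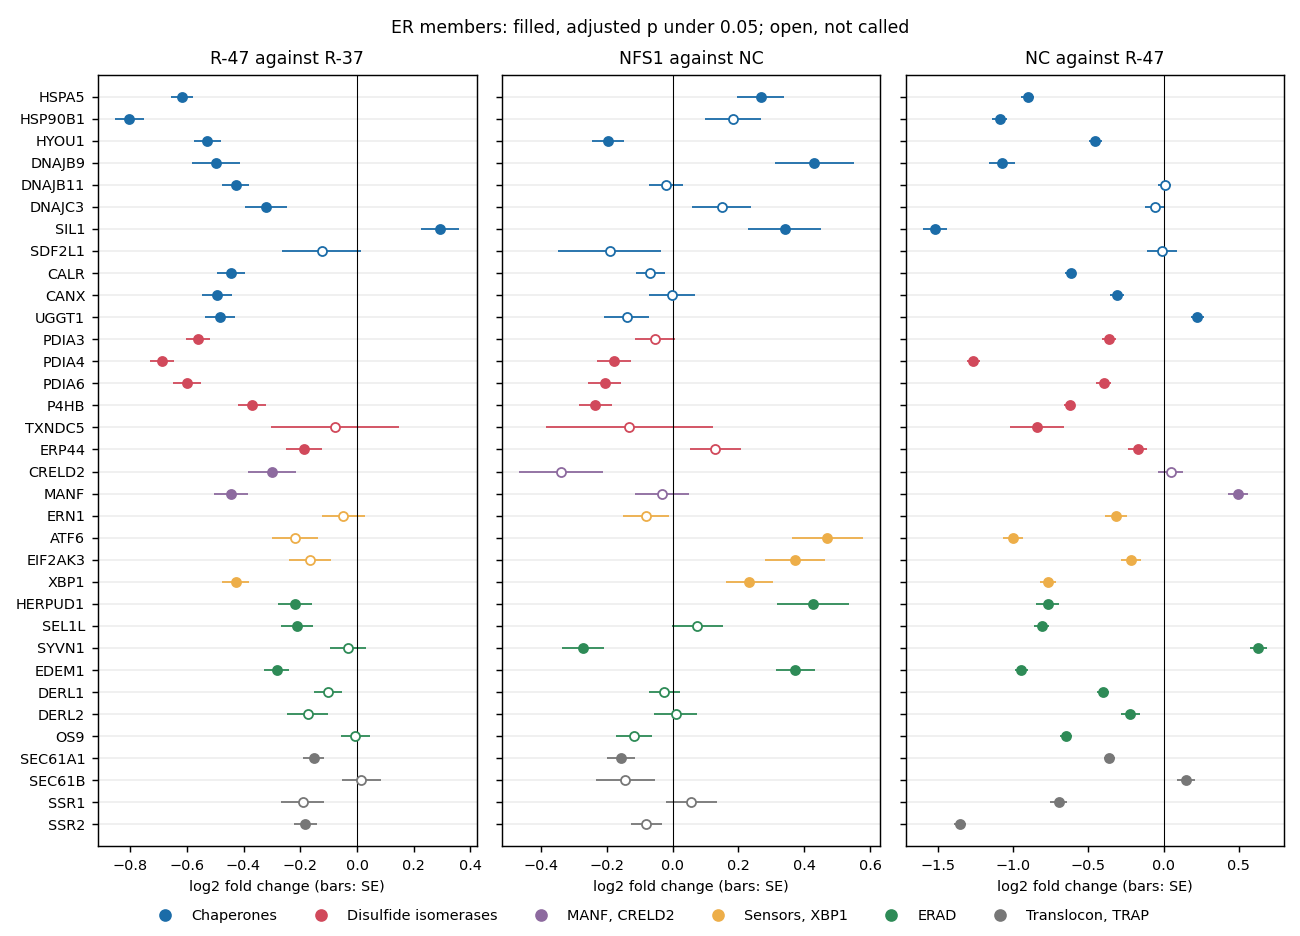
Log2 fold change of each of the 34 members (x axis, bars show the SE) in the 3 comparisons, in the order of their roles, with filled points for members past an adjusted p of 0.05 and open points for the others. In the left panel 22 members lie below 0 as filled points and only SIL1 lies above 0 as one; the middle panel holds 8 filled points above and 6 below 0; the right panel holds 4 above and 26 below.

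**Figure D2:**
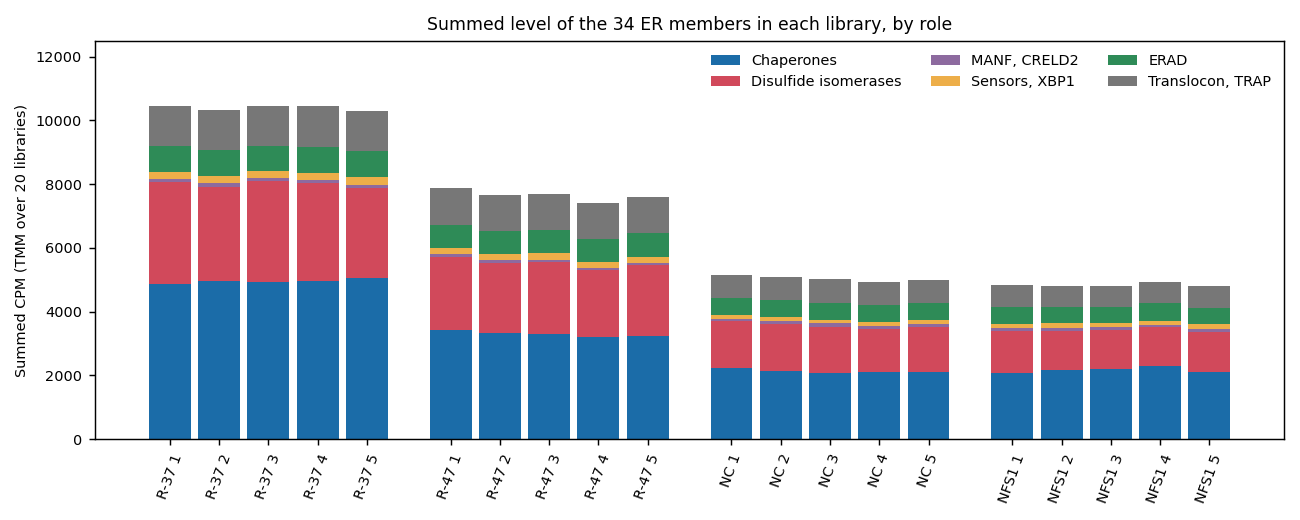
Summed level in CPM (y axis) of the 34 members in each of the 20 libraries (x axis), stacked by role. The R-37 bars reach 10302 to 10464 CPM, the R-47 bars 7396 to 7866, the NC bars 4932 to 5151 and the NFS1 bars 4791 to 4933.

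Of the 11 chaperones and co-chaperones 9 fell, with a median log2 fold change of -0.48. HSPA5, the ER member of the HSP70 family that binds nascent chains and holds the sensors inactive, stood at 1008, 966, 1014, 970.1 and 981 CPM in R-37 and at 679, 635, 646, 607 and 639.6 in R-47. Every heated library lay below every unheated one (edgeR log2 fold change -0.62 with SE 0.040 and adjusted p = 5.4e-08). HSP90B1, the ER member of the HSP90 family, stood at 1325, 1412, 1358, 1402 and 1544 CPM in R-37 and at 885, 811, 778, 776 and 775 in R-47. That was the steepest fall of the set, again with separate groups (edgeR log2 fold change -0.80 with SE 0.050 and adjusted p = 4.8e-08). HYOU1, which helps HSPA5 release its nucleotide, stood at 365, 362, 360.2, 368 and 328 CPM in R-37 and at 238, 254, 269, 235 and 238 in R-47. It fell by a little less than HSPA5 (edgeR log2 fold change -0.53 with SE 0.049 and adjusted p = 2.14e-06).

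The J-domain co-chaperones fell with their partner. DNAJB9, which recruits HSPA5 to misfolded clients and to IRE1, stood at 21.6, 26.1, 22.4, 24.2 and 27.7 CPM in R-37 and at 19.8, 16.8, 15.6, 16.1 and 17.9 in R-47. Its groups came close, at 21.6 and 19.8 CPM, but did not overlap (edgeR log2 fold change -0.50 with SE 0.085 and adjusted p = 0.000628). Means of DNAJB11 were 125 ± 6.09 CPM in R-37 and 92.6 ± 2.55 in R-47 (SD, n = 5 each), and those of DNAJC3 31.7 ± 3.45 and 25.3 ± 1.07, both a fall past the test. SIL1, the other nucleotide exchange factor of HSPA5, moved against the rest: it stood at 29.3, 24.7, 28.0, 26.3 and 23.7 CPM in R-37 and at 31.8, 32.4, 30.8, 31.3 and 34.7 in R-47. All heated libraries lay above all unheated ones (edgeR log2 fold change 0.29 with SE 0.068 and adjusted p = 0.0058). SDF2L1, a partner of the DNAJB11 complex, did not pass the test (edgeR log2 fold change -0.13 with SE 0.14 and adjusted p = 0.538). Its R-37 libraries spread from 17.8 to 33.1 CPM and enclosed those of R-47.

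The lectin cycle, in which calnexin and calreticulin hold glycoproteins until they fold, fell in all 3 of its listed genes. CANX stood at 777, 886, 814, 833 and 927 CPM in R-37 and at 640.5, 588, 569.6, 619 and 580.4 in R-47. The groups were separate (edgeR log2 fold change -0.49 with SE 0.052 and adjusted p = 7.42e-06). UGGT1, which tags unfolded glycoproteins for another round, stood at 148, 178, 158, 167 and 178 CPM in R-37 and at 119.6, 119, 118, 116 and 118 in R-47. The heated libraries were tightly grouped and all lower (edgeR log2 fold change -0.48 with SE 0.054 and adjusted p = 1.36e-05). CALR fell from 955 ± 65.3 to 700.2 ± 29.7 CPM, by 0.44 on the log2 scale.

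Disulfide isomerases form and rearrange the disulfide bonds of secreted proteins, and 5 of the 6 listed members fell (median log2 fold change -0.47). PDIA4 stood at 457, 439.7, 450.1, 445 and 422 CPM in R-37 and at 276, 278, 288, 257 and 272 in R-47. No library of either group came near the other group (edgeR log2 fold change -0.69 with SE 0.042 and adjusted p = 4.1e-08). PDIA6, which also acts on IRE1, stood at 219, 213, 219, 211 and 208 CPM in R-37 and at 157, 138, 139, 134 and 136 in R-47. Replicate 1 was the highest of the heated libraries and still lay below all of R-37 (edgeR log2 fold change -0.60 with SE 0.049 and adjusted p = 6.15e-07). PDIA3, the isomerase that works with the lectins, stood at 457, 470.0, 470.2, 458 and 495 CPM in R-37 and at 334, 324, 307, 315 and 309.6 in R-47. The groups were again separate (edgeR log2 fold change -0.56 with SE 0.042 and adjusted p = 2.47e-07).

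P4HB, the most abundant member, fell from 1861 ± 137 to 1434 ± 57.5 CPM (log2 fold change -0.37 ± 0.050 SE). ERP44, which retrieves escaped ER proteins from the early secretory pathway, differed by little and its groups overlapped (edgeR log2 fold change -0.19 with SE 0.064 and adjusted p = 0.0436). That call ended when any of 8 of the 10 libraries was left out (adjusted p 0.056 to 0.114 without one of them, edgeR). TXNDC5 did not pass the test, at 2.72 ± 1.03 CPM in R-37 and 2.57 ± 0.331 in R-47. Of the stress-induced proteins, MANF, which is retained by binding HSPA5 and is released under stress, stood at 77.5, 71.5, 73.1, 66.9 and 66.7 CPM in R-37 and at 51.7, 57.8, 51.0, 48.6 and 51.4 in R-47. It fell with separate groups (edgeR log2 fold change -0.44 with SE 0.059 and adjusted p = 8.07e-05). CRELD2 fell from 28.6 ± 4.05 to 23.2 ± 0.733 CPM, by 0.30 on the log2 scale, a call that ended under 5 of the 23 alternatives (adjusted p up to 0.134).

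None of the 3 sensors passed the test, whereas XBP1 fell. ERN1 stood at 26.0, 24.8, 22.8, 23.0 and 22 CPM in R-37 and at 21.7, 22.4, 27.1, 21.7 and 21.4 in R-47, where replicate 3 was above every unheated library (edgeR log2 fold change -0.048 with SE 0.076 and adjusted p = 0.673). ATF6 stood at 40.6, 52.9, 48.0, 45.8 and 59.1 CPM in R-37 and at 40.3, 42.9, 43.6, 42.0 and 42.2 in R-47. Its unheated libraries spread widely, the lowest of them within the R-47 range, and the difference just missed the threshold (edgeR log2 fold change -0.22 with SE 0.081 and adjusted p = 0.0592). ATF6 was called lower with no filter, with DESeq2 and without R-37 replicate 1 (adjusted p 0.0447, 0.047 and 0.00786). EIF2AK3 stood at 23.1, 27.5, 25.0, 27.0 and 27.9 CPM in R-37 and at 24.0, 20.3, 24.8, 23.8 and 23.0 in R-47, with overlapping groups (edgeR log2 fold change -0.17 with SE 0.073 and adjusted p = 0.108). XBP1 mRNA, spliced and unspliced together, stood at 138, 129.6, 133, 125 and 135 CPM in R-37 and at 102, 93.8, 99.8, 93.3 and 102 in R-47. It was lower in each heated library (edgeR log2 fold change -0.43 with SE 0.048 and adjusted p = 1.44e-05).

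**Figure D3:**
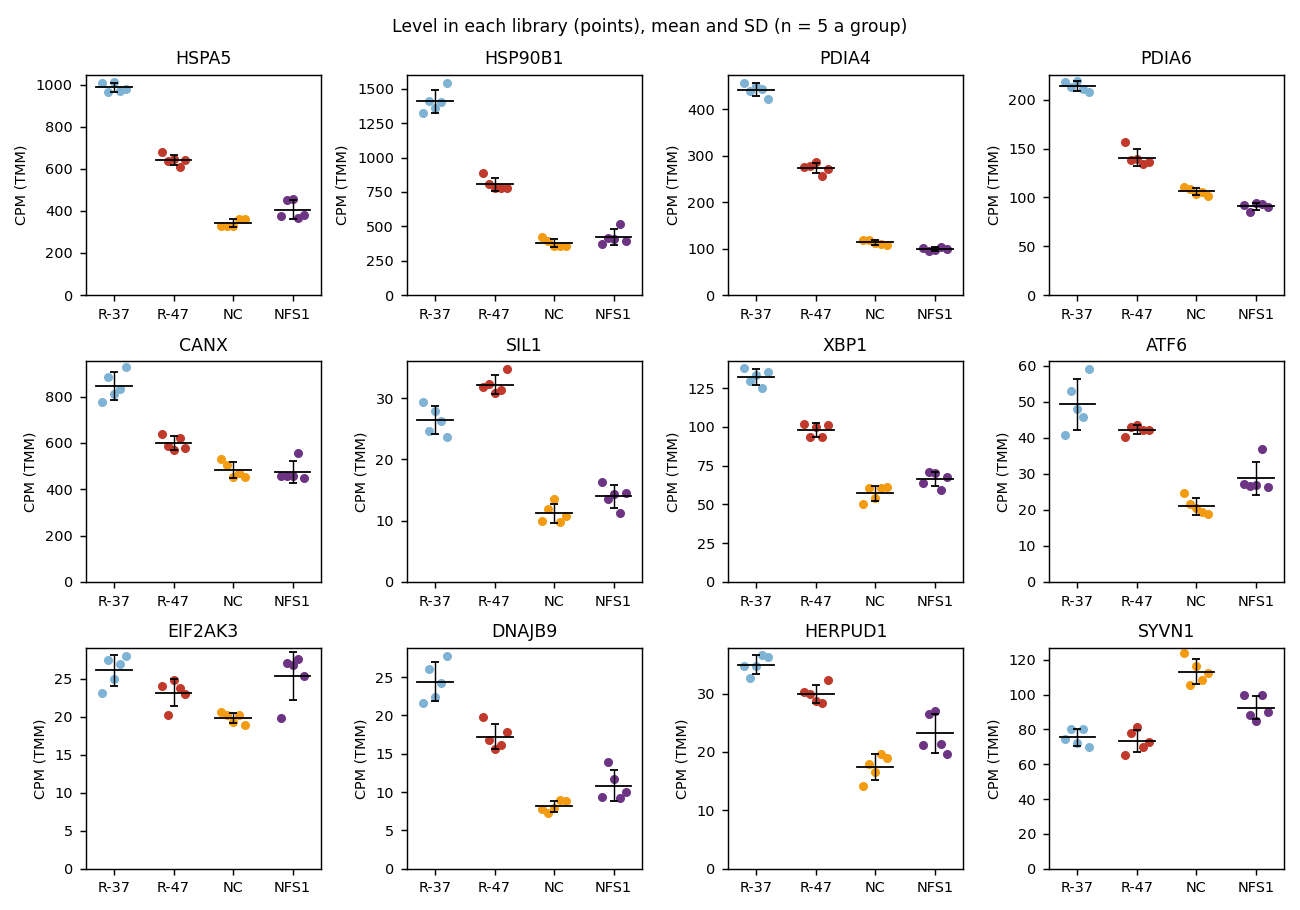
Level in CPM (y axis, from 0) of 12 members in each library (points), with the mean and SD of the 5 libraries of each group (lines). HSPA5, HSP90B1, PDIA4, PDIA6 and XBP1 step down from R-37 to R-47 and again to NC, whereas SIL1 rises from R-37 to R-47 and SYVN1 is higher in NC than in R-47.

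In ERAD, 3 of the 7 members fell. EDEM1, which marks misfolded glycoproteins by trimming their mannose, went from 159 ± 7.32 to 131 ± 2.84 CPM (edgeR log2 fold change -0.28 with SE 0.045 and adjusted p = 0.000344). SEL1L, the adaptor of the HRD1 ubiquitin ligase, fell by 0.21 on the log2 scale and HERPUD1, a membrane partner of that ligase, by 0.22. Both calls ended under 5 of the 23 alternatives, at changes down to -0.066 for SEL1L (length and GC offset) and -0.13 for HERPUD1 (FPKM), whereas that of EDEM1 held under all 23. The ligase itself, SYVN1, did not pass the test (75.4 ± 4.67 CPM in R-37, 73.4 ± 6.42 in R-47). The lectin OS9 stood at 220.0 ± 15.4 and 218 ± 8.41 CPM, and its fitted difference was -0.0061 ± 0.052 SE on the log2 scale. The derlins DERL1 and DERL2, which help to move substrates through the membrane, had log2 fold changes of -0.10 ± 0.050 SE and -0.17 ± 0.071 SE and did not pass either. In the translocon, the channel subunit SEC61A1 fell by 0.15 and the TRAP subunit SSR2 by 0.18 on the log2 scale, while SEC61B (0.016 ± 0.068 SE) and SSR1 (-0.19 ± 0.076 SE) did not pass the test. The SEC61A1 and SSR2 calls ended with library size alone and in the 3 FPKM settings, at changes down to -0.076 and -0.11 (adjusted p up to 0.138 and 0.0643).

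Members with an ERSE or ERSE-II in the window, whose sites are printed above, are set beside the others as a description. Of the 10 with a site 9 fell, SDF2L1 being the exception, with a median log2 fold change of -0.47. Of the 22 matched members without a site 12 fell and SIL1 rose, with a median of -0.19. The steepest fall among those without a site was that of PDIA4. Most members with a site are chaperones, and none is of the translocon. By role the median was -0.48 for chaperones and -0.17 for both ERAD and the translocon, so site and role cannot be told apart. In the other comparisons the medians with and without a site lay close together. They were -0.035 and -0.027 in NFS1 against NC, and -0.53 and -0.49 in NC against R-47.

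**Figure D4:**
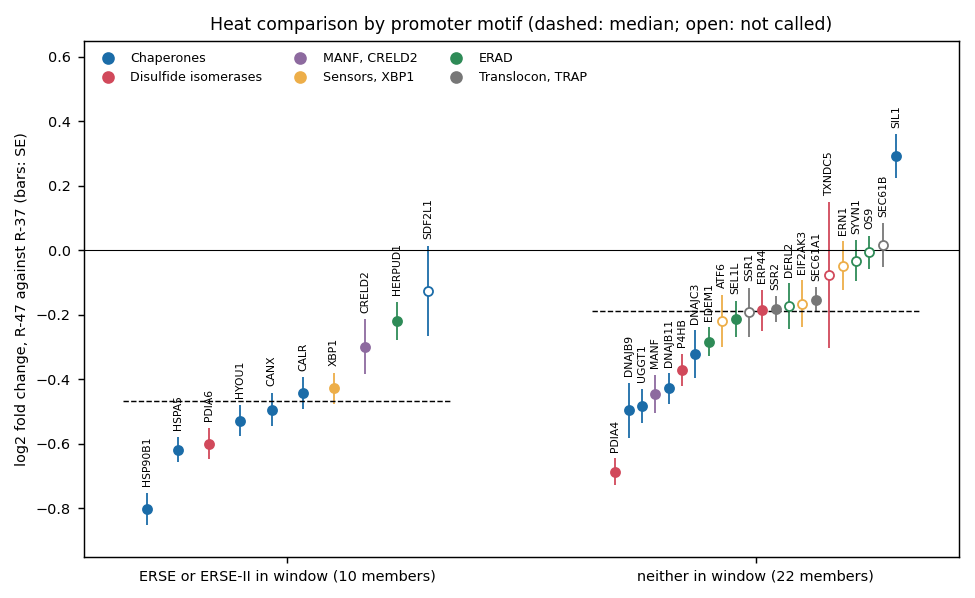
Log2 fold change of R-47 against R-37 (y axis, bars show the SE) of the 32 members matched to a RefSeq window, in 2 columns by whether the 250 bases before a start hold an ERSE or ERSE-II; dashed lines are the medians and open points did not pass the test. The 10 members with a site run from -0.80 to -0.13 with a median of -0.47, and the 22 without from -0.69 to 0.29 with a median of -0.19.

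Lists of further genes of the pathway showed median log2 fold changes of -0.21 for folding, -0.22 for translocation, -0.21 for retrieval and early traffic, -0.12 for sensors and proteases, -0.038 for ERAD and 0.058 for the PERK, ATF4 and CHOP branch, against -0.0076 over all genes tested. Of all genes tested 13.2% were called lower and 11.9% higher, and the ERAD counts below lie near those shares. Of 31 other folding, oxidation and glycan-processing genes tested, 11 fell and 1 rose: ERO1B, an ER oxidase, fell most (edgeR log2 fold change -0.89 with SE 0.23 and adjusted p = 0.0108) and CDNF, a relative of MANF, rose, both at about 1 CPM. Of 24 other genes of translocation, signal peptidase and oligosaccharyltransferase 13 fell and none rose, led by RPN2 (523 ± 15.8 to 382 ± 18.6 CPM). Of 29 genes of retrieval and early secretory traffic 17 fell and none rose, led by the COPII coat gene SEC24D (38.3 ± 3.92 to 21.3 ± 0.545 CPM, edgeR log2 fold change -0.84 with SE 0.070 and adjusted p = 7.59e-07). Among 27 further ERAD genes 5 fell, most steeply the mannosidase-like EDEM3 (log2 fold change -0.46 ± 0.10 SE), and 3 rose, led by NGLY1 (0.17 ± 0.059 SE). Among 16 further sensors and their proteases 5 fell, led by MBTPS1, the protease that cuts ATF6 (-0.23 ± 0.046 SE), and 2 rose, led by CREB3 (0.22 ± 0.071 SE). Of 14 genes of the PERK, ATF4 and CHOP branch 4 rose and none fell. PPP1R15A, which reverses the PERK signal, rose most (86.2 ± 8.40 to 126 ± 5.29 CPM, edgeR log2 fold change 0.55 with SE 0.064 and adjusted p = 1.86e-05), while ATF4 did not pass the test (0.067 ± 0.046 SE).

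Other genes moved in the same libraries. Of 12 cytosolic heat shock genes 10 fell and none rose, and their summed level went from between 9336 and 9646 CPM in R-37 to between 5373 and 6307 in R-47. Of 10 liver and liver cancer markers tested 5 fell and 1 rose, and the sum over all 12 listed ranged over 1096 to 1496 CPM without heating and 565 to 672 CPM with it. GPC3 had 0 counts in R-37, TTR was near 0, and most of the sum was H19 (1059 ± 142 and 417 ± 37.4 CPM). Their part in the fall of the ER genes was not tested. Scaled by library size alone, 16 members fell and SIL1 rose, and the split over all genes moved from 1714 higher and 1890 lower to 2977 higher and 1013 lower.

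The second comparison asked what lowering NFS1, a mitochondrial cysteine desulfurase, does in heated cells. NFS1 mRNA stood at 71.5, 72.7, 71.4, 71.9 and 76.0 CPM in NC and at 70.7, 65.2, 64.2, 64.0 and 68.3 in the libraries labelled NFS1. The groups did not overlap, but the difference was small and did not pass the test (edgeR log2 fold change -0.11 with SE 0.050 and adjusted p = 0.114). The mRNA level thus gives no firm check of the knockdown label, and the directions below are those of the libraries labelled NFS1. In them the ER set held calls in both directions. Higher than in NC were the sensors ATF6 and EIF2AK3, XBP1, the ERAD genes HERPUD1 and EDEM1, and HSPA5 with its partners DNAJB9 and SIL1. Lower were the isomerases P4HB, PDIA4 and PDIA6, with HYOU1, SYVN1 and SEC61A1. Of the 34 members 8 rose and 6 fell, against 15.7% and 12.5% of all 15086 genes tested (28.1% in either direction), and the median log2 fold change was -0.029 against 0.017 over all genes. Groups were separate for 5 of the members that rose and all 6 that fell, and for SSR2, which was not called, against 10.5% of all genes in each direction. The summed level was 4932 to 5151 CPM in NC and 4791 to 4933 in NFS1.

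Of the sensors, ATF6 rose most. It stood at 24.8, 21.6, 20.6, 19.3 and 18.8 CPM in NC and at 27.0, 26.5, 26.9, 37.0 and 26.3 in NFS1, where replicate 4 was far above the others. All NFS1 libraries lay above all of NC (edgeR log2 fold change 0.47 with SE 0.11 and adjusted p = 0.00537). EIF2AK3 stood at 20.6, 20.2, 19.3, 20.2 and 18.9 CPM in NC and at 19.8, 27.1, 26.9, 27.5 and 25.3 in NFS1. It rose in 4 libraries, and replicate 1 lay within the NC range (edgeR log2 fold change 0.37 with SE 0.090 and adjusted p = 0.00689). ERN1 stood at 19.4, 17.4, 18.7, 18.8 and 16.9 CPM in NC and at 17.2, 16.6, 18.3, 16.9 and 16.2 in NFS1, with no difference past the test (edgeR log2 fold change -0.082 with SE 0.070 and adjusted p = 0.409). XBP1 stood at 50.5, 60.4, 53.9, 60.4 and 61.0 CPM in NC and at 64.0, 71.1, 70.2, 59.4 and 67.5 in NFS1. It rose, with NFS1 replicate 4 inside the NC range (edgeR log2 fold change 0.23 with SE 0.070 and adjusted p = 0.0228), and the call ended without NC replicate 1 or 3 or NFS1 replicate 2 or 3 (adjusted p 0.0608, 0.0835, 0.0793 and 0.0631, edgeR).

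ERAD genes moved both ways. HERPUD1, which is strongly induced by ER stress, stood at 14.2, 17.9, 16.5, 19.7 and 19 CPM in NC and at 21.3, 26.5, 26.9, 21.4 and 19.7 in NFS1. The highest NC and lowest NFS1 library nearly met, and replicates 2 and 3 stood above the other NFS1 libraries (edgeR log2 fold change 0.43 with SE 0.11 and adjusted p = 0.00974). EDEM1 stood at 66.4, 70.2, 68.9, 65 and 66.7 CPM in NC and at 84.7, 80.9, 80.6, 96.3 and 88.8 in NFS1. It showed the widest separation relative to its error among the members that rose (edgeR log2 fold change 0.37 with SE 0.060 and adjusted p = 0.000389). SYVN1, the ligase with which HERPUD1 works, went down: it stood at 124, 105, 116, 108 and 112 CPM in NC and at 99.8, 88.1, 85, 99.8 and 90.3 in NFS1. The groups were separate (edgeR log2 fold change -0.27 with SE 0.064 and adjusted p = 0.00591). SEL1L, DERL1, DERL2 and OS9 did not pass the test, with log2 fold changes of 0.075, -0.025, 0.0094 and -0.12.

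Among the chaperones 3 rose and 1 fell. HSPA5 stood at 327, 328, 330.2, 359.9 and 363 CPM in NC and at 376, 450.2, 457, 365 and 381 in NFS1. The groups nearly met, at 363 and 365 CPM, and replicates 2 and 3 stood well above the other NFS1 libraries (edgeR log2 fold change 0.27 with SE 0.071 and adjusted p = 0.0121). DNAJB9 stood at 7.80, 7.25, 7.87, 8.95 and 8.89 CPM in NC and at 9.31, 13.9, 11.7, 9.29 and 9.97 in NFS1. Replicates 2 and 3 were again the highest (edgeR log2 fold change 0.43 with SE 0.12 and adjusted p = 0.0156). The DNAJB9 call ended under 3 of 25 alternatives and the HSPA5 call under 2 (adjusted p up to 0.144 and 0.122). SIL1 stood at 9.93, 11.8, 13.5, 9.78 and 10.8 CPM in NC and at 16.3, 13.5, 14.3, 11.2 and 14.5 in NFS1. Its groups overlapped (log2 fold change 0.34 ± 0.11 SE), and the call ended when any of 8 of the 10 libraries was left out (adjusted p = 0.0332 in all and 0.053 to 0.0877 without one of them, edgeR). HYOU1 fell (edgeR log2 fold change -0.20 with SE 0.048 and adjusted p = 0.00777). HSP90B1 (0.18 ± 0.085 SE), CALR (-0.068 ± 0.045 SE), CANX (-0.0020 ± 0.071 SE) and UGGT1 (-0.14 ± 0.067 SE) did not pass the test, and neither did DNAJB11, DNAJC3 or SDF2L1. UGGT1 was called lower under 5 of 25 alternatives (adjusted p down to 6.6e-06, with the length and GC offset).

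Of the 6 isomerases 3 fell and none rose. P4HB stood at 932, 947, 962, 867 and 921 CPM in NC and at 837, 763, 756, 714 and 816 in NFS1. Every NFS1 library lay below every NC library (edgeR log2 fold change -0.23 with SE 0.051 and adjusted p = 0.00356). PDIA6 fell from 106 ± 3.85 to 90.9 ± 3.28 CPM and PDIA4 from 114 ± 4.88 to 99.1 ± 3.54, by 0.21 and 0.18 on the log2 scale, and the PDIA4 call ended under 4 of 25 alternatives, among them without NFS1 replicate 3 and without replicates 2 and 3 (adjusted p = 0.0501 and 0.113, edgeR). PDIA3, TXNDC5 and ERP44 did not pass the test, nor did MANF or CRELD2 (log2 fold change -0.033 ± 0.082 SE and -0.34 ± 0.13 SE), though CRELD2 was called lower under 7 of the 25 alternatives (adjusted p down to 0.00414). In the translocon SEC61A1 fell from 401 ± 11 to 355 ± 12.6 CPM, by 0.16 on the log2 scale, a call that ended under 2 of the 25 alternatives (adjusted p up to 0.0839), and SEC61B, SSR1 and SSR2 did not pass.

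**Figure D5:**
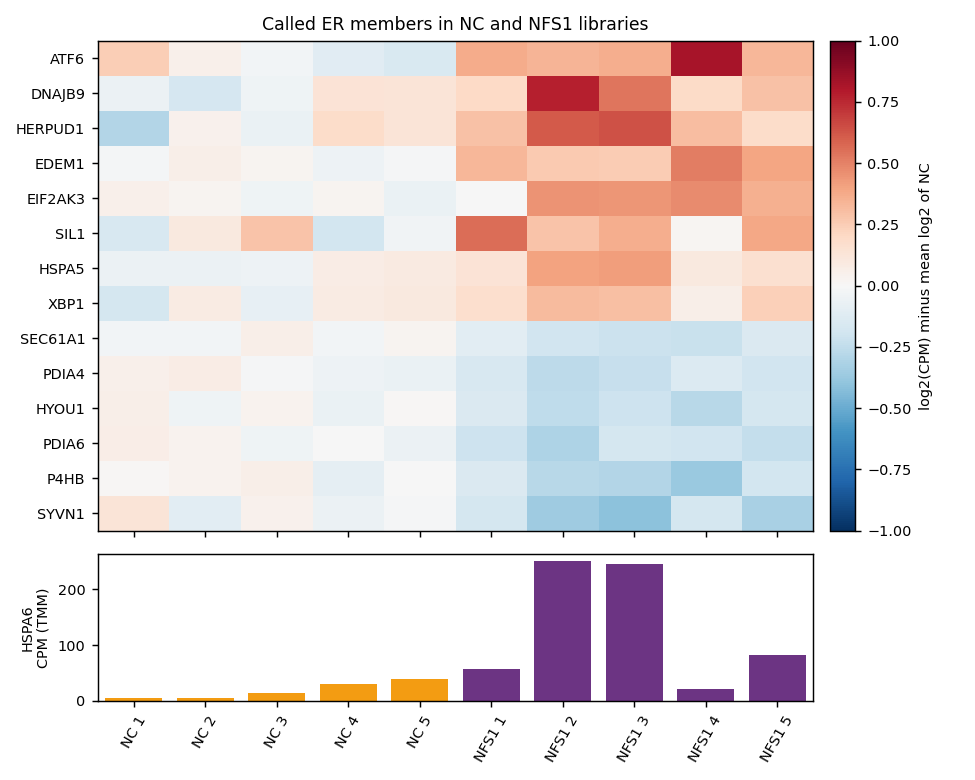
Upper panel: log2 CPM minus the mean log2 CPM of NC (colour) of the 14 members called between NFS1 and NC, in each of the 10 libraries (x axis). Lower panel: HSPA6 in CPM (y axis) in the same libraries. NFS1 replicates 2 and 3, with HSPA6 at 251 and 246 CPM, also hold the highest values of DNAJB9, HERPUD1, HSPA5 and XBP1. NFS1 replicate 4, with HSPA6 at 22.3 CPM, holds the highest ATF6 and EDEM1.

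A cytosolic heat shock signal went with some of these results and not with others. HSPA6, a strictly inducible HSP70 gene, stood at 5.41, 6.10, 14.6, 30.0 and 39 CPM in NC and at 56.6, 251, 246, 22.3 and 83.1 in NFS1, against at most 1.49 in the first experiment. HSPA1A stood at 42.5, 56.7, 91.7, 197 and 244 CPM in NC and at 208, 872, 839, 99.3 and 297 in NFS1. NFS1 replicates 2 and 3 were the highest for both, as they were for HSPA5, DNAJB9, HERPUD1 and XBP1. NFS1 replicate 4, with the highest ATF6 and EDEM1, lay inside the NC range for both heat shock genes. Reads of HSPA1A can be split with its near-identical copy HSPA1B. Of the 12 cytosolic heat shock genes 5 rose and none fell, and their summed level was 4640 to 5444 CPM in NC and 4825 to 7441 in NFS1. With NFS1 replicates 2 and 3 left out, 2 members rose, ATF6 and EDEM1 (log2 fold change 0.53 and 0.43), and 3 fell, HYOU1, PDIA6 and P4HB, and HSPA5 stood at 0.14 (adjusted p = 0.12, edgeR). These 2 libraries held the highest HSPA5, DNAJB9, HERPUD1 and XBP1, so leaving them out lowers those differences by construction. It also leaves fewer samples, so it cannot show which calls go with the heat shock signal. What part that signal had in any of the calls was not tested. Without NC replicate 1 and NFS1 replicate 4 instead, 9 members rose and 8 fell. With an offset for gene length and GC content 8 rose and 11 fell, and on log2(FPKM + 1) with no filter 4 rose and 6 fell.

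The further lists held calls in both directions, with median log2 fold changes of 0.18 for the PERK, ATF4 and CHOP branch, 0.084 for sensors and proteases, -0.0086 for ERAD, -0.092 for folding, -0.082 for translocation and -0.044 for retrieval, against 0.017 over all genes tested. Of all genes tested 15.7% were called higher and 12.5% lower. Several of the counts below lie near those shares and say little about their lists. In the PERK, ATF4 and CHOP branch 4 of 14 genes rose and 1 fell: DDIT4, an ATF4 target that restrains growth signalling, rose most (50.8 ± 13.3 to 90.2 ± 12.3 CPM, edgeR log2 fold change 0.85 with SE 0.15 and adjusted p = 0.000928), and ATF4 rose by 0.28 ± 0.067 SE, while EIF2S1, the initiation factor subunit that PERK phosphorylates, fell (-0.25 ± 0.046 SE). Of 27 further ERAD genes 6 rose, led by ERLIN1 (29.4 ± 1.37 to 46.3 ± 3.11 CPM), and 2 fell, led by VCP, the ATPase that pulls substrates out of the membrane (799.7 ± 30.9 to 622 ± 31.5 CPM). Of 16 further sensors and proteases 4 rose, led by CREB3L2 (0.47 ± 0.064 SE), and 1, CREB3, fell (-0.45 ± 0.061 SE). Of 30 other folding genes 1 rose, DNAJC1 (25.6 ± 1.55 to 43.4 ± 4.00 CPM), and 4 fell, led by CLGN (-0.57 ± 0.13 SE). Of 24 genes of translocation and oligosaccharyltransferase 7 fell, led by the TRAP subunit SSR4 (141 ± 10.6 to 82.7 ± 16.5 CPM), and 1, SRPRA, rose. Of 29 genes of retrieval and early traffic 5 fell, led by ARCN1 (-0.36 ± 0.061 SE), and 2 rose, led by ERGIC1 (43.5 ± 2.30 to 65.2 ± 6.81 CPM).

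The first 2 comparisons share no library, so their calls can be set side by side, with no test of the difference. Of the 22 members that fell after heating, 5 were among the 8 that rose in NFS1 (DNAJB9, EDEM1, HERPUD1, HSPA5 and XBP1). Another 5 were among the 6 that fell there too (HYOU1, P4HB, PDIA4, PDIA6 and SEC61A1). As 22 of all 34 members fell after heating, most of any such group would be among them, so these overlaps by themselves say little. SIL1 rose in both. The HSPA5 mean was 406 ± 44.1 CPM in NFS1 and 642 ± 25.7 CPM in R-47, but these groups come from different experiments. HSPA5 was already lower in NC than in R-47 (log2 fold change -0.90 ± 0.043 SE), where experiment and cells cannot be told apart.

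The third comparison set the heated wild-type cells of the 2 experiments side by side, NC against R-47, which by their labels had the same treatment. Here the ER set lay far lower in NC: 26 members were lower and 4 higher, against 39.6% and 40.1% of all 15080 genes tested (79.7% in either direction), so a call by itself says little in this comparison. The median log2 fold change of the members was -0.43 against 0.011 over all genes, and groups were separate for 23 that were lower and 3 that were higher (34.6% and 32.7% of all genes). This comparison shares R-47 with the first and NC with the second. Since VIM and CDH1 also differ between NC and R-47 as given above, the experiment and the cells cannot be told apart.

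SIL1 lay farthest below R-47 (edgeR log2 fold change -1.52 with SE 0.080 and adjusted p = 1.12e-13), with the library values already given. SSR2 stood at 334, 371, 363, 345 and 354 CPM in R-47 and at 137, 141, 141, 134 and 135 in NC, with a wide gap between the groups (edgeR log2 fold change -1.36 with SE 0.041 and adjusted p = 7.08e-18). PDIA4 (-1.26 ± 0.043 SE), HSP90B1 (-1.09 ± 0.050 SE), DNAJB9 (-1.07 ± 0.085 SE), ATF6 (-1.001 ± 0.067 SE), EDEM1 (-0.95 ± 0.042 SE) and HSPA5 (-0.90 ± 0.043 SE) followed on the log2 scale, all with separate groups. SEL1L stood at 109, 93.3, 98.3, 102 and 103 CPM in R-47 and at 58.0, 56.2, 53.4, 61.1 and 57.9 in NC (edgeR log2 fold change -0.81 with SE 0.051 and adjusted p = 2.49e-12). TXNDC5 stood at 2.79, 2.16, 2.43, 2.47 and 3.01 CPM in R-47 and at 1.21, 1.15, 1.74, 1.72 and 1.32 in NC (edgeR log2 fold change -0.84 with SE 0.18 and adjusted p = 0.000216). Both had separate groups. All 3 sensors and XBP1 were lower in NC, with log2 fold changes of -0.77 ± 0.056 SE for XBP1, -0.32 ± 0.073 SE for ERN1 and -0.22 ± 0.065 SE for EIF2AK3. The calls of ERN1 and EIF2AK3 ended with library size alone and in the 3 FPKM settings (log2 fold change down to -0.087 for ERN1 and -0.029 for EIF2AK3), and that of ERN1 also with a gene length offset (adjusted p = 0.257, edgeR).

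Against that direction, SYVN1 went from 73.4 ± 6.42 CPM in R-47 to 113 ± 7.21 in NC (edgeR log2 fold change 0.63 with SE 0.059 and adjusted p = 1.96e-09). MANF went from 52.1 ± 3.41 to 73.0 ± 7.61 CPM (edgeR log2 fold change 0.49 with SE 0.066 and adjusted p = 6.01e-07), and UGGT1 and SEC61B were higher by 0.22 and 0.15 on the log2 scale. The SEC61B call ended when any of 6 of the 10 libraries was left out (adjusted p 0.0502 to 0.0793, edgeR). With an offset for gene length and GC content 2 members, not 4, were higher: the MANF call ended (adjusted p = 0.0873, edgeR) and the sign of SEC61B turned. DNAJB11, DNAJC3, SDF2L1 and CRELD2 did not pass the test. By role, 7 of 11 chaperones, 6 of 6 isomerases, 6 of 7 ERAD genes and 3 of 4 translocon genes were lower, with medians of -0.45, -0.51, -0.65 and -0.53. ERP44 was lower by -0.17 ± 0.062 SE with overlapping groups, and its fold change was 0.0067 when scaled by library size alone, which moved the median over all genes to 0.19.

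Outside the members, list medians ran from -0.35 for further sensors and proteases to 0.017 for retrieval and early traffic. Of all genes tested 39.6% were called lower and 40.1% higher, and several of the counts below lie near those shares. The comparison gave 7 lower and 2 higher of 14 genes of the PERK, ATF4 and CHOP branch, with CHAC1 lowest (-1.69 ± 0.20 SE) and EIF2S1 highest (0.997 ± 0.044 SE). Of 16 further sensors and proteases 11 were lower, led by CREB3L2 (-1.71 ± 0.048 SE), and 3 higher, led by CREB3 (0.55 ± 0.050 SE). Other folding genes were lower in 18 cases and higher in 7, with the prolyl isomerase FKBP11 at 6.82 ± 1.04 CPM in R-47 and 28.5 ± 1.77 in NC, and ERO1B at 0.907 ± 0.157 and 0.0152 ± 0.0339 CPM, the latter a handful of reads. Further ERAD genes were split evenly, 9 each way, with EDEM2 lowest (-1.40 ± 0.19 SE) and JKAMP highest (0.46 ± 0.070 SE). Translocation genes were also split 9 each way, with SRPRA lowest (-1.12 ± 0.041 SE) and SPCS1 highest (0.75 ± 0.059 SE). Retrieval and early traffic genes were higher in 13 cases, led by SEC24C (0.83 ± 0.039 SE), and lower in 11, led by ERGIC1 (-1.91 ± 0.052 SE).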

How the data were processed

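PolyA RNA was sequenced from 20 libraries, per the labels' protocols. Reads were handled with fastp, HISAT2 and HTSeq on hg38, per the submitters' processing notes, which name no version, annotation or strand setting. The authors deposited whole-number counts per gene symbol, not normalised, and FPKM values, which equal the count per gene length and library total. Everything else was computed from these tables.

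Members and gene lists were chosen with earlier results of these data known. Values in every library are printed for the 10 called members of largest change per comparison, and always for HSPA5, XBP1, ATF6, ERN1 and EIF2AK3. The exceptions, in NC against R-47, are the NC libraries of PDIA4 and HSP90B1 and the R-47 libraries of EDEM1. For each further list the called gene of largest change in each direction is named. NFS1, HSPA6, HSPA1A, H19, HNF4A, ALB, GPC3, TTR, VIM and CDH1 were named to check labels and markers, and ATF4 as the factor its branch is named for.

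Each comparison used only its 2 groups. edgeR 4.0.16 (R 4.3.3) kept genes by filterByExpr (minimum count 10, total 15), scaled by TMM and ran the quasi-likelihood test, with Benjamini-Hochberg adjustment at 0.05. SE is the fold change divided by the root of F. Printed CPM were scaled over all 20 libraries, so ratios of means differ slightly from fitted folds. On simulated counts the test recovered 52, 78, 90 and 94% of genes changed 1.25-, 1.5-, 2- and 4-fold in the heat design. It recovered 28, 64, 92 and 96% in the NFS1 design and 50, 76, 90 and 100% for NC against R-47. False calls made up 4.85, 7.28 and 5.39% of the calls, in the same order of designs. Each simulation changed 50 genes per fold, far fewer than were called in the data, so these rates need not hold there. Alternatives were DESeq2 (1.42.0), limma 3.58.1 on voom values or log2 FPKM (pseudocount 1 or 0.1, kept above an average of 1 FPKM, or pseudocount 1 unfiltered), other scalings and filters (minimum count 50, none), all libraries in one fit, a gene length offset, the replicate number as a block, each library left out and NFS1 replicates 2 and 3 left out. A length and GC offset, and leaving out NC replicate 1 with NFS1 replicate 4, were added after seeing the data. Positions and promoter sequences are RefSeq's (GRCh38.p14), and GC content and exon overlaps come from GENCODE. Without a stated strand setting, reads of members that overlap a gene on the opposite strand, such as PDIA3, PDIA6, SYVN1, DNAJB9 and SEC61A1, cannot be separated from it.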

Additional observations from a re-analysis of the deposited data

Results flagged for a closer look

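A library stood far from the other 4 of its group, by a gap above 0.71 of the group's range (Dixon's 95% limit for 5 samples), in 16 of the 136 groups of member levels checked. Chance gives such a gap in about 1 in 20 groups. In NFS1 replicate 4, ATF6 (37.0 CPM), CANX (559), ERP44 (55.3) and SSR1 (146) were high, and SDF2L1 (11.9) and CRELD2 (13.0) were low. In NC replicate 1, UGGT1 was high (151 CPM) and MANF (59.7) and SEC61B (64.5) were low. EIF2AK3 was low in NFS1 replicate 1, at 19.8 CPM.

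In the first experiment R-37 replicate 5 was low for HYOU1 (328 CPM) and SEC61A1 (544.6) and high for DERL2 (48.2). R-47 replicate 1 was high for DNAJC3 (27.2 CPM) and PDIA6 (157), and R-47 replicate 3 was high for ERN1 (27.1). No cause of these gaps was tested.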

How the results depend on the processing

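After heating, 15 to 25 members were lower and 1 higher under every alternative run, and with 1 library left out 21 to 25 were lower. Of the 23 members called, 16 kept call and direction under all of them and 7 lost the call under some. Between NFS1 and NC, 5 of 14 did and 9 lost it. There, 4 members were higher on log2(FPKM + 1) with no filter, 11 lower with the length and GC offset, and 2 higher and 3 lower without NFS1 replicates 2 and 3, which also leaves fewer samples. With 1 library left out 6 to 8 were higher and 5 to 7 lower. Between NC and R-47, 24 of 30 kept their call, 2 members were higher with the length and GC offset, and with 1 library left out 3 to 4 were higher and 25 to 26 lower. Of the members not called, 5 gained a call under some alternative after heating, 6 in NFS1 against NC and 3 in NC against R-47.

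The sign turned for these members, each called in the main analysis or under the alternative. With a length offset, and with length and GC, SEC61B stood at -0.21 and -0.21 after heating and at -0.33 and -0.38 in NC against R-47, and DNAJB11 at -0.16 and -0.17 there. SSR1 stood at -0.14 in NFS1 against NC with length and GC. ERP44 in NC against R-47 stood at 0.0067 with library size alone, at 0.0062 on log2(FPKM + 1) with or without the filter and at 0.0068 on log2(FPKM + 0.1). Across the genes tested, log2 fold change had a Spearman rho with length and GC content of -0.22 and 0.39 after heating, 0.23 and -0.23 in NFS1 against NC, and -0.16 and 0.015 in NC against R-47. The cause was not tested.

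With the replicate block 21 members were lower and 1 higher after heating, 6 higher and 4 lower in NFS1, and 26 lower and 4 higher in NC. Same-numbered libraries did not consistently deviate together (correlations -0.30, 0.0013, 0.31, -0.081 and -0.21 after heating, -0.50, -0.28, 0.15, -0.26 and 0.18 for NFS1 and NC, and -0.033 to 0.38 for NC and R-47). In no comparison did every library correlate best with its own number. The highest correlation, 0.38, was between NC and R-47, which come from different experiments, so this check cannot decide whether the numbers pair the samples. Counting error is small for most members at this depth and largest for TXNDC5.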
